A study of Mus musculus with 15 samples.

Results

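The oxygen-sensing hydroxylases of the HIF pathway and the protein that reads their mark are encoded by a handful of genes, whose RNA was measured here in hypoxic (1% O2) cultures of the mouse melanoma line B16.F10. They were taken from the count tables by symbol: Egln1, Egln2 and Egln3, which encode the prolyl hydroxylases PHD2, PHD1 and PHD3, Hif1an, which encodes the asparaginyl hydroxylase FIH, and Vhl, the recognition subunit of the ubiquitin ligase that binds hydroxylated HIF-α. All 5 genes were listed in every library, among 12721 genes listed for all 5 groups. Each group held 3 libraries. Control cells had no treatment. NC_siRNA cells were transfected with a negative control siRNA and Hif1a_siRNA cells with an siRNA against Hif1a, both as lipoplexes at 25 nM. Dox cells received 0.25 µM doxorubicin, a DNA-intercalating inhibitor of topoisomerase II, for 24 h. Hif1a_siRNA_Dox cells received the Hif1a siRNA and, 24 h later, doxorubicin for 24 h. All groups were in low oxygen, and the genotype labels are WT or Hif-1a knockdown. How long transfected cells without drug were kept before harvest is not stated in the sources used here, and no group combined the negative control siRNA with doxorubicin, so every comparison of Hif1a_siRNA_Dox with Dox includes transfection itself. Libraries are labelled as biological replicates, with no mention of separate cultures, which limits every p-value to the spread among these samples of 1 cell line.

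When oxygen is available, the prolyl hydroxylases use it together with 2-oxoglutarate and iron to hydroxylate HIF-α, VHL then binds the hydroxylated protein, and the proteasome degrades it. FIH hydroxylates an asparagine of HIF-α and so blocks its binding to the co-activators p300 and CBP. In hypoxia both reactions slow down, HIF-α accumulates with its partner ARNT, and the dimer activates its target genes. Egln1 and Egln3 are themselves known HIF targets in many cell types and thereby form a feedback loop, while Egln2, Hif1an and Vhl are not generally counted among the targets. RNA levels of these genes say nothing of the enzymes' activity, which depends on oxygen.

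Sequences upstream of the Egln genes are shown because HIF dimers bind DNA at the core ACGTG or GCGTG, and the 3 paralogs responded differently. RefSeq windows of 250 bases before the annotated start (GRCm38.p6) were found for all 5 genes and searched for both cores on both strands. Capitals mark a core, and CACGC is GCGTG read on the other strand. The Egln1 window (chr8:124949305-124949504, minus strand) is printed without the last 50 bases before the RefSeq start, the Egln2 window (chr7:27166803-27167052, minus strand) and the Egln3 window (chr12:54203875-54204124, minus strand) in full.
Egln1: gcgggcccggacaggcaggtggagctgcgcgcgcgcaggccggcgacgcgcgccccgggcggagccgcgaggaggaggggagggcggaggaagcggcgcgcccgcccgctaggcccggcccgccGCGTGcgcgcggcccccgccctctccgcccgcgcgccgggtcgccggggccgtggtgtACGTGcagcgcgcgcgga
Egln2: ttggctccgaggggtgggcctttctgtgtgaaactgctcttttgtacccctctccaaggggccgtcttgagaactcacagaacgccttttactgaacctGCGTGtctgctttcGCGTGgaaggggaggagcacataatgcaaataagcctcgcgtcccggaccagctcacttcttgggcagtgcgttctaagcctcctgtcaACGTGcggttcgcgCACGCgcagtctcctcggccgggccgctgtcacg
Egln3: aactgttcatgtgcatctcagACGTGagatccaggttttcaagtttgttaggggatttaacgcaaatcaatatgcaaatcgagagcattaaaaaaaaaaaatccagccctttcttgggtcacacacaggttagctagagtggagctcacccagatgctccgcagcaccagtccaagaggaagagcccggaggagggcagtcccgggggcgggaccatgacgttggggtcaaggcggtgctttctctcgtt
Egln1 held GCGTG 126 bases and ACGTG 68 bases upstream of its start. GENCODE M21 places the Egln1 start 70 bases further upstream than RefSeq does, so by that annotation ACGTG lies at the beginning of exon 1. Egln2 held 3 copies of GCGTG, at 151, 137 and 34 bases, and ACGTG at 48 bases. A second RefSeq start of Egln2 has a window of its own (chr7:27165729-27165978, not printed), with GCGTG at 116 bases. Egln3 held ACGTG at 229 bases. No core was found in the windows of Hif1an or Vhl. Of 32851 RefSeq windows of the same length, 38.6% held at least 1 of the cores, 16.6% ACGTG and 28.2% GCGTG, so a match by itself is common. The gene with the most matches, Egln2, was the one whose RNA differed least between the groups. A relation between cores and response was not tested, and bases outside these windows were not searched.

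The libraries held 23825110 to 28734303 counted reads, and levels are given as CPM, read counts scaled to a common library size after TMM scaling. All 10 melanocytic markers looked up (such as Pmel, Tyr and Mlana) were listed, and none of the 6 immune, 4 endothelial or 4 epithelial markers was. Sums of markers are an exception: they are CPM of a library's total reads, without TMM scaling. The melanocytic markers summed to 19630 to 22680 CPM in Control, 16730 to 17160 in Hif1a_siRNA and 12470 to 13120 in NC_siRNA. In the libraries with doxorubicin they summed to 39170 to 50670 CPM. Of 7 fibroblast markers 3 were listed (Col1a1, Pdgfra and Pdgfrb), with summed levels from 17.6 to 18.9 CPM in Control up to 90.6 to 109 CPM in Hif1a_siRNA_Dox. Mitochondrially encoded transcripts made up 1.38% to 2.11% of reads without doxorubicin and 3.37% to 5.07% with it. The part of these shifts in the results was not tested, apart from a fit without the mitochondrial genes. Libraries of Hif1a_siRNA_Dox differed most among themselves: its pairs of libraries gave a chi-square of gene counts, divided by the degrees of freedom, of 25.4 to 34.8, against 3.58 to 16.8 for pairs within the other groups. In bulk RNA, fewer cells of a kind and less RNA per cell cannot be told apart.

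The siRNA target was low in the libraries that received it. Hif1a stood at 205, 231 and 216 CPM in Control, 289, 268 and 264 in NC_siRNA, 16.7, 15.9 and 18.9 in Hif1a_siRNA, 138, 137 and 153 in Dox, and 13.5, 11.6 and 14.3 in Hif1a_siRNA_Dox. Arnt, its dimer partner, was at 192 to 216 CPM in Control and 179 to 187 CPM in Hif1a_siRNA, but at 8.34 to 10.1 CPM in Dox and 12.1 to 12.4 CPM in Hif1a_siRNA_Dox. Doxorubicin alone also lowered Hif1a, by 1.52-fold without overlap with Control (log2 change -0.61 ± 0.08 SE, edgeR adjusted p = 1.46e-07).

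**Figure D1:**
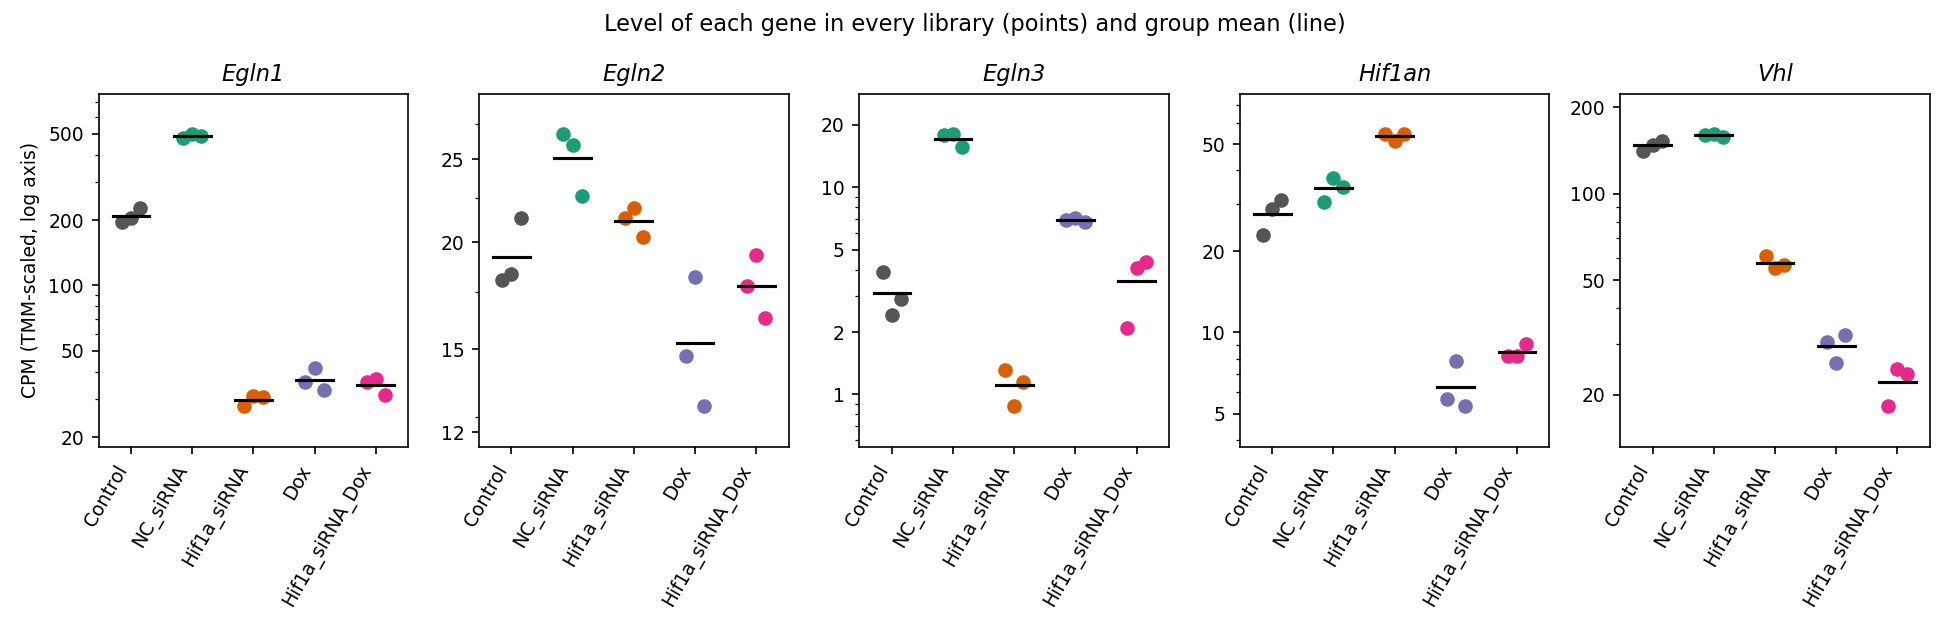
CPM on TMM-scaled libraries (y axis, log scale, each panel with its own range) of the 5 genes in the 5 groups (x axis). Points are the 3 libraries of a group and the horizontal line is their mean. Egln1 lies between 27.8 and 41.7 CPM in the 3 groups with the Hif1a siRNA or the drug, Egln3 is low in Hif1a_siRNA and higher in Dox than in Control, and Egln2 varies within 12.9 to 26.7 CPM.

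Egln1, whose product PHD2 is the main HIF prolyl hydroxylase in most cells, was high in Control and NC_siRNA and low wherever the Hif1a siRNA or doxorubicin had been given. The gene (ID 112405) lies on the minus strand of chromosome 8, from 124908587 to 124949254 (GRCm38). It measured 195, 205 and 228 CPM in Control, 477, 497 and 489 in NC_siRNA, 27.8, 31.0 and 30.5 in Hif1a_siRNA, 35.8, 41.7 and 33.0 in Dox, and 35.8, 37.1 and 31.4 in Hif1a_siRNA_Dox. The groups without Hif1a siRNA or drug did not overlap with the other 3, whose libraries all lay between 27.8 and 41.7 CPM. Against NC_siRNA, Hif1a_siRNA lowered Egln1 16.4-fold (log2 change -4.03 ± 0.09 SE, edgeR adjusted p = 1.26e-20, Benjamini-Hochberg over the 12721 genes with a threshold of 0.05), and only 30 of the 12721 genes had a lower log2 change. Against Control the decrease was 7.04-fold (log2 change -2.81 ± 0.09, edgeR adjusted p = 2.94e-18). Doxorubicin alone lowered it 5.68-fold (log2 change -2.51 ± 0.09, edgeR adjusted p = 6.59e-18).

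In cells that already carried the siRNA, Egln1 was no lower with the drug than without it. Hif1a_siRNA_Dox exceeded Hif1a_siRNA by 0.23 ± 0.09 on the log2 scale (edgeR adjusted p = 0.0179), while Hif1a_siRNA_Dox and Dox differed by -0.08 ± 0.09 (95% interval -0.26 to 0.10, edgeR adjusted p = 0.474), so their order was not resolved. The difference between the doxorubicin effect after knockdown and alone was 2.73 ± 0.12 on the log2 scale (edgeR adjusted p = 1.01e-14), and 176 of the 12721 genes had a higher value of it. The small rise after knockdown lost its call without Hif1a_siRNA replicate 1, 2 or 3 or Hif1a_siRNA_Dox replicate 2 (log2 change 0.12 to 0.20), and without the mitochondrial genes (0.17, edgeR adjusted p = 0.0667).

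Egln3, which encodes PHD3 and is usually the most hypoxia-inducible of the family, was scarce and followed a different order. Its counts per library ran from 29 to 498 reads, so counting error weighs most on this gene. Egln3 (ID 112407) lies on the minus strand of chromosome 12, from 54178981 to 54203874. It measured 3.88, 2.42 and 2.90 CPM in Control, 17.9, 18.0 and 15.6 in NC_siRNA, 1.31, 0.876 and 1.14 in Hif1a_siRNA, 6.96, 7.10 and 6.79 in Dox, and 2.1, 4.06 and 4.36 in Hif1a_siRNA_Dox. NC_siRNA was highest, then Dox, and Hif1a_siRNA was lowest, each without overlap with the next group, whereas Control and Hif1a_siRNA_Dox overlapped. Hif1a_siRNA lowered Egln3 15.4-fold against NC_siRNA (log2 change -3.95 ± 0.23, edgeR adjusted p = 5.25e-13) and 2.76-fold against Control (log2 change -1.47 ± 0.25, edgeR adjusted p = 1.77e-05). Doxorubicin raised it, by 2.26-fold alone (log2 change 1.18 ± 0.22, edgeR adjusted p = 3.08e-05) and by 3.15-fold after knockdown (log2 change 1.66 ± 0.25, edgeR adjusted p = 1.46e-06).

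The doxorubicin effects on Egln3 after knockdown and alone differed by 0.48 ± 0.33 on the log2 scale (95% interval -0.21 to 1.16, edgeR adjusted p = 0.222), which did not pass the test. Within doxorubicin-treated cells the siRNA was associated with 1.99-fold less Egln3 (log2 change -0.99 ± 0.21, edgeR adjusted p = 0.000702). Hif1a_siRNA_Dox against Control gave 0.19 ± 0.23 on the log2 scale (95% interval -0.28 to 0.66, edgeR adjusted p = 0.441). Hif1a_siRNA_Dox replicate 1, at 2.1 CPM, decides some of these calls: without it the difference of the effects was 0.74 (edgeR adjusted p = 0.0251) and the change against Control 0.45 (edgeR adjusted p = 0.0372).

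Egln2, which encodes PHD1 and is not considered hypoxia-inducible, differed least. The gene (ID 112406) lies on the minus strand of chromosome 7, from 27158658 to 27166802. It measured 18.0, 18.3 and 21.3 CPM in Control, 26.7, 25.98 and 22.6 in NC_siRNA, 21.4, 21.9 and 20.3 in Hif1a_siRNA, 14.7, 18.2 and 12.9 in Dox, and 17.8, 19.3 and 16.3 in Hif1a_siRNA_Dox. In the order of its group means, none of the 4 pairs of neighbouring groups passed the test (edgeR adjusted p from 0.0669 to 0.39). The widest difference, between NC_siRNA and Dox, was 1.64-fold (log2 change -0.72 ± 0.12, edgeR adjusted p = 7.57e-06). Hif1a_siRNA against NC_siRNA gave -0.24 ± 0.12 on the log2 scale (95% interval -0.48 to -0.0039, edgeR adjusted p = 0.0669), which passed under other settings, such as DESeq2 (-0.29, adjusted p = 0.0295). Doxorubicin alone lowered it 1.26-fold (log2 change -0.33 ± 0.12, edgeR adjusted p = 0.0151), a call that was lost without Control replicate 3 (-0.25) or Dox replicate 3 (-0.22) and with upper-quartile scaling (-0.21). The exon union of Egln2 overlaps Cyp2t4 on the opposite strand over 11 bases, and Cyp2t4 has no row in the tables used here.

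Per kilobase of exon (the union of GENCODE exons), Egln1 was the most abundant of the 3 paralogs in every group, and its margin differed widely. In Control, Egln1 stood at 58.2 ± 4.6 CPM per kb (SD, n = 3), Egln2 at 6.87 ± 0.65 and Egln3 at 1.15 ± 0.28. In Hif1a_siRNA the same levels were 8.28 ± 0.48, 7.57 ± 0.30 and 0.416 ± 0.081 CPM per kb. Egln1 thus made up 87.9% ± 0.57 (SD, n = 3) of the summed Egln level per kb in Control and 89.8% ± 0.83 in NC_siRNA, against 50.9% ± 1.9 with the Hif1a siRNA, 56.0% ± 0.24 with doxorubicin and 55.8% ± 2.3 with both. For Egln2 the share was 10.4% ± 0.21 in Control and 46.6% ± 1.7 in Hif1a_siRNA, while its own level was 19.2 ± 1.8 and 21.2 ± 0.83 CPM.

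The share of Egln3 was 1.76% ± 0.51 in Control, 4.27% ± 0.32 in NC_siRNA and 2.57% ± 0.57 in Hif1a_siRNA. It was 14.4% ± 1.4 in Dox and 7.61% ± 2.8 in Hif1a_siRNA_Dox. The log2 ratio of Egln3 to Egln1 CPM in a library, which does not depend on scaling, was -6.40 to -5.65 in Control and -2.55 to -2.28 in Dox, a difference of 3.72 with no overlap (exact two-sided permutation p = 0.1, the smallest that 3 against 3 libraries can give). In Hif1a_siRNA the ratio was -4.76 ± 0.37 against -4.83 ± 0.12 in NC_siRNA, a difference within the spread (SD, n = 3, exact permutation p = 0.9), and the sign of that difference of 0.07 turned without NC_siRNA replicate 3 (-0.003234) or Hif1a_siRNA replicate 1 (-0.11).

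**Figure D2:**
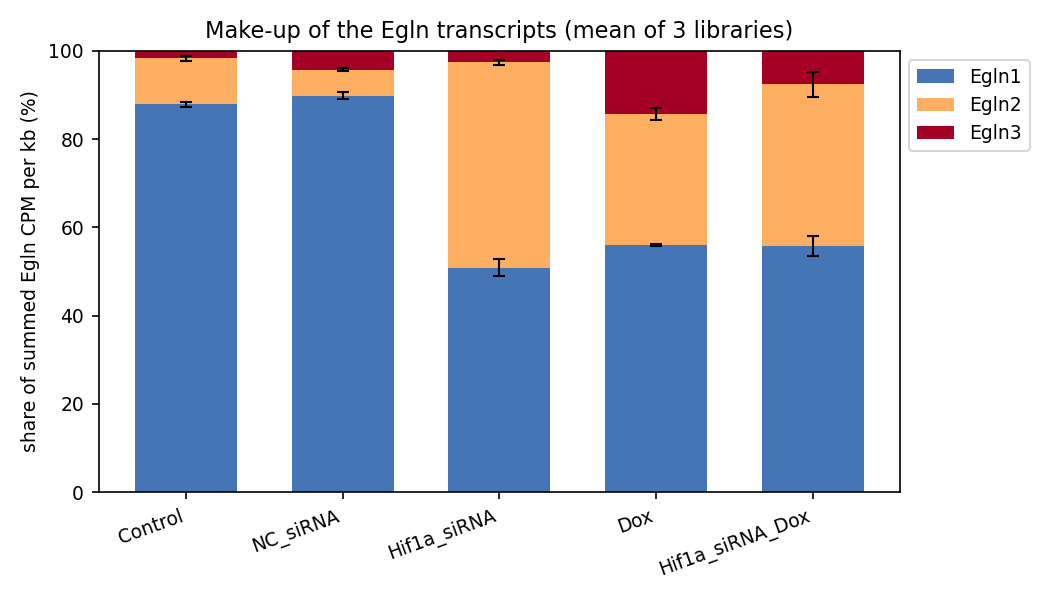
Share of Egln1, Egln2 and Egln3 (y axis, percent of the summed CPM per kb of exon) in each of the 5 groups (x axis), as means of 3 libraries. The error bar at the top of the Egln1 block is the SD of the Egln1 share and the one at the boundary of Egln2 and Egln3 is the SD of the Egln3 share; Egln1 is at 87.9% in Control, 50.9% in Hif1a_siRNA and 56.0% in Dox, and Egln3 is at 14.4% in Dox.

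Hif1an, which encodes FIH, was the only one of the 5 genes that was higher after Hif1a siRNA than in both groups without it and without drug. The gene (ID 319594) lies on the plus strand of chromosome 19, from 44562854 to 44576274. It measured 23.0, 28.8 and 31.1 CPM in Control, 30.6, 37.6 and 34.8 in NC_siRNA, 54.4, 51.5 and 54.4 in Hif1a_siRNA, 5.65, 7.81 and 5.32 in Dox, and 8.19, 8.15 and 9.08 in Hif1a_siRNA_Dox. Hif1a_siRNA was above all libraries of the other groups, and both doxorubicin groups were below all libraries without the drug. Hif1a_siRNA raised Hif1an 1.56-fold against NC_siRNA (log2 change 0.64 ± 0.12, edgeR adjusted p = 3.77e-05) and 1.94-fold against Control (log2 change 0.95 ± 0.12, edgeR adjusted p = 1.49e-07).

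Doxorubicin lowered Hif1an 4.40-fold alone (log2 change -2.14 ± 0.14, edgeR adjusted p = 5.59e-13) and 6.31-fold after knockdown (log2 change -2.66 ± 0.13, edgeR adjusted p = 3.29e-15). The difference of these effects was -0.52 ± 0.19 on the log2 scale (edgeR adjusted p = 0.0196). It no longer passed without Control replicate 1 (-0.41) or Dox replicate 2 (-0.33). Hif1a_siRNA_Dox was 1.35-fold above Dox (log2 change 0.43 ± 0.14, edgeR adjusted p = 0.0189), without overlap, but the call was lost with limma-voom (0.44, adjusted p = 0.0541), in fits of these groups alone (0.44) and without Dox replicate 1 or 3 or Hif1a_siRNA_Dox replicate 3 (0.33 to 0.38).

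Vhl fell with the siRNA and was lower still with the drug. The gene (ID 22346) lies on the plus strand of chromosome 6, from 113623994 to 113631634. It measured 141, 148 and 153 CPM in Control, 160, 161 and 158 in NC_siRNA, 60.7, 55.0 and 56.5 in Hif1a_siRNA, 30.6, 25.9 and 32.4 in Dox, and 18.2, 24.5 and 23.6 in Hif1a_siRNA_Dox. No group overlapped another. Hif1a_siRNA lowered Vhl 2.78-fold against NC_siRNA (log2 change -1.48 ± 0.09, edgeR adjusted p = 1.34e-12) and 2.57-fold against Control (log2 change -1.36 ± 0.09, edgeR adjusted p = 5.90e-12). Doxorubicin lowered it 4.98-fold alone (log2 change -2.32 ± 0.10, edgeR adjusted p = 1.96e-16) and 2.60-fold after knockdown (log2 change -1.38 ± 0.10, edgeR adjusted p = 3.28e-12).

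The difference of the doxorubicin effects on Vhl was 0.94 ± 0.13 on the log2 scale (edgeR adjusted p = 2.80e-06), a smaller decrease in cells that carried the siRNA. Vhl was also 1.34-fold lower in Hif1a_siRNA_Dox than in Dox (log2 change -0.42 ± 0.10, edgeR adjusted p = 0.00154). Per kb, Vhl was close to Egln1 in Control, at 49.2 ± 2.1 CPM per kb (SD, n = 3), and in Hif1a_siRNA it was the most abundant of the 5 genes, at 19.2 ± 0.99 CPM per kb against 8.28 ± 0.48 for Egln1 and 8.09 ± 0.25 for Hif1an. Mouse Vhl has 1 annotated processed pseudogene, Vhl-ps1, which has no row in the tables used here; how its reads were counted is not given in the sources used here.

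Transfection with the negative control siRNA changed these genes too. NC_siRNA against Control raised 4 of the 5 genes and lowered none, where 66.8% of the 12721 genes were called (33.1% higher and 33.7% lower). Egln3 rose 5.59-fold (log2 change 2.48 ± 0.21, edgeR adjusted p = 8.90e-10), and 11 of the 12721 genes had a higher log2 change. Egln1 rose 2.33-fold (log2 change 1.22 ± 0.08, edgeR adjusted p = 1.41e-11) and Egln2 1.30-fold (log2 change 0.38 ± 0.12, edgeR adjusted p = 0.00673). The rise of Hif1an was 0.31 ± 0.12 on the log2 scale with overlapping libraries (edgeR adjusted p = 0.0239), and it did not pass without Control replicate 1 (0.20), NC_siRNA replicate 2 (0.25) or NC_siRNA replicate 3 (0.30). Vhl gave 0.12 ± 0.09 (95% interval -0.07 to 0.30, edgeR adjusted p = 0.255).

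Most genes of the transcriptome were called in most comparisons, so the number of these 5 genes called is given beside that share. Hif1a_siRNA against NC_siRNA called 3 of the 5 lower (Egln1, Egln3 and Vhl) and 1 higher (Hif1an), where 67.7% of genes were called (36.4% higher and 31.2% lower). Against Control the same genes were called in the same directions, with 74.4% of genes called (40.2% higher and 34.2% lower). Doxorubicin against Control called all 5, with 4 lower and Egln3 higher, where 83.8% of genes were called (43.9% higher and 39.8% lower). After knockdown, doxorubicin called Egln1 and Egln3 higher and Hif1an and Vhl lower, where 84.2% of genes were called (42.6% higher and 41.6% lower). Hif1a_siRNA_Dox against Dox called Hif1an higher and Egln3 and Vhl lower, where 42.2% of genes were called (21.5% higher and 20.8% lower). Hif1a_siRNA_Dox against Control called 3 lower (Egln1 6.01-fold, Hif1an 3.26-fold and Vhl 6.67-fold), where 84.7% of genes were called (43.4% higher and 41.2% lower). The difference of the doxorubicin effects was called positive for Egln1 and Vhl and negative for Hif1an, where 58.6% of genes were called (26.3% higher and 32.3% lower). None of these counts of calls sets the 5 genes apart from the rest.

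**Figure D3:**
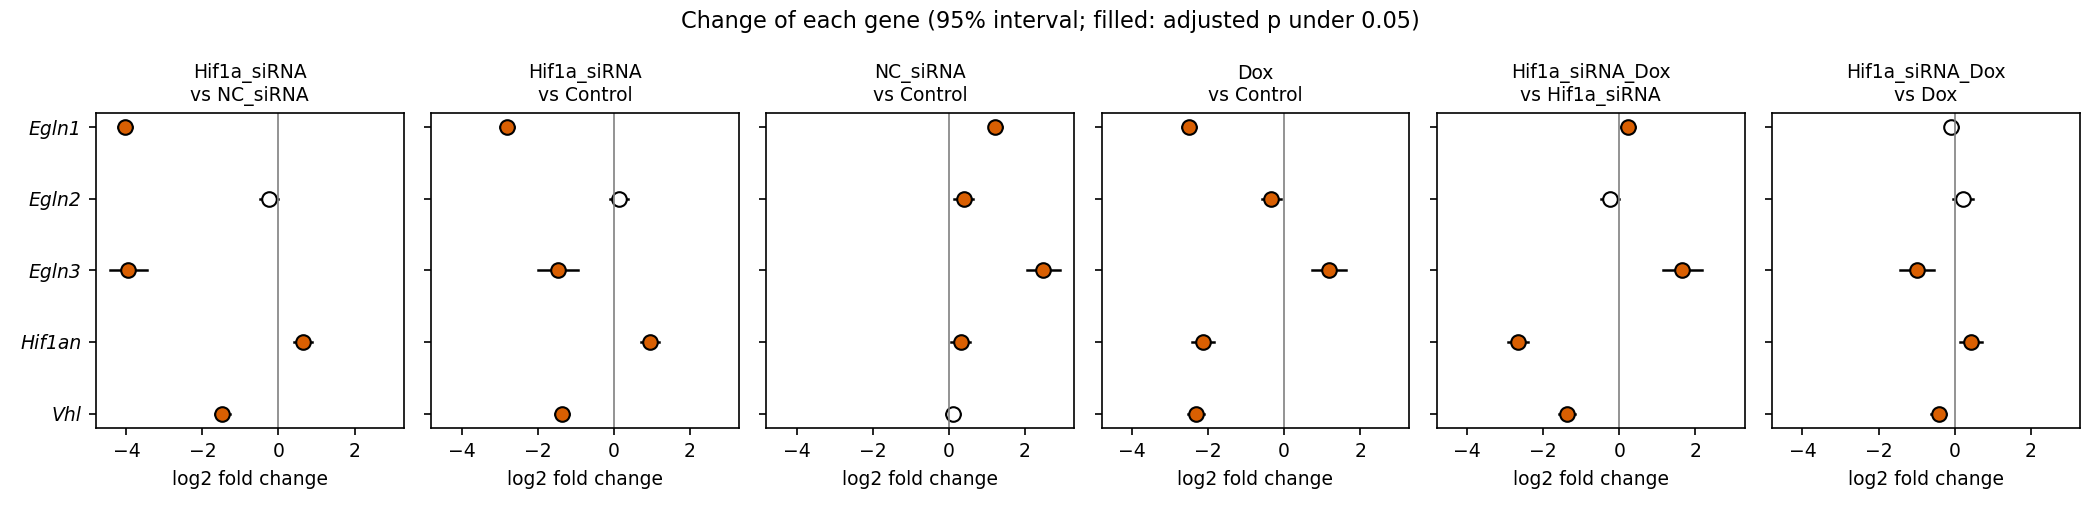
Log2 fold changes (x axis) of the 5 genes in 6 comparisons between groups (panels), from the edgeR fit of all 15 libraries. Bars are 95% intervals and filled points have an adjusted p under 0.05; Egln1 lies at -4.03 for Hif1a siRNA against the control siRNA and at -2.51 for doxorubicin alone, and Egln3 lies to the right of 0 for doxorubicin alone and after knockdown.

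Egln1 and Egln3 were set beside 15 other known HIF-1 targets, among them Pdk1, Car9, Slc2a1 and Ndrg1. After Hif1a siRNA all 15 fell against NC_siRNA, with log2 changes from -4.74 (Car9, a carbonic anhydrase) to -1.44 (Mxi1, a MYC antagonist) and a median of -3.21, against a median of 0.06 over all genes; 31.2% of genes were called lower. Egln1 at -4.03 and Egln3 at -3.95 lay inside this range, and Vhl at -1.48 at its edge. Against Control the 15 ran from -4.67 to -1.28 (median -3.18), with Egln1 at -2.81 and Egln3 nearer the weak end at -1.47. In NC_siRNA against Control the 15 ran from -1.02 to 0.92 (median -0.07). Egln1 at 1.22 and Egln3 at 2.48 lay above all of them there. With doxorubicin alone 14 of the 15 fell, with a median of -3.13 against 0.10 over all genes, where 39.8% of genes were called lower. Ndrg1, a stress-responsive gene, gave -0.10 ± 0.06 and did not pass (edgeR adjusted p = 0.132). Egln1 at -2.51 lay inside the range of -5.32 to -0.10, and Egln3 at 1.18 lay above every one of the 15.

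After knockdown, doxorubicin lowered 11 of the 15 further, raised 3 and left 1 short of the test (median -0.73, range -2.29 to 2.98; over all genes 42.6% were called higher and 41.6% lower), beside 0.23 for Egln1 and 1.66 for Egln3. The signed log2 effect of doxorubicin after knockdown minus that alone was positive for all 15 targets (median 2.60, range 0.76 to 4.55, against -0.06 over all genes; 26.3% of genes were called higher). For the 11 that fell after knockdown, this is a smaller decrease, as for Car9 (-4.90 alone and -2.29 after knockdown). All 15 were already lower in Hif1a_siRNA than in Control, where 34.2% of genes were called lower. Egln1, at 2.73, was near the median of 2.60. The value for Egln3, 0.48, was below the lowest of the 15 but did not pass the test. Hif1a_siRNA_Dox against Control lowered all 15 (median -3.63), where 41.2% of genes were called lower and Egln3 gave 0.19. These comparisons share the Control or the Hif1a_siRNA_Dox libraries.

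**Figure D4:**
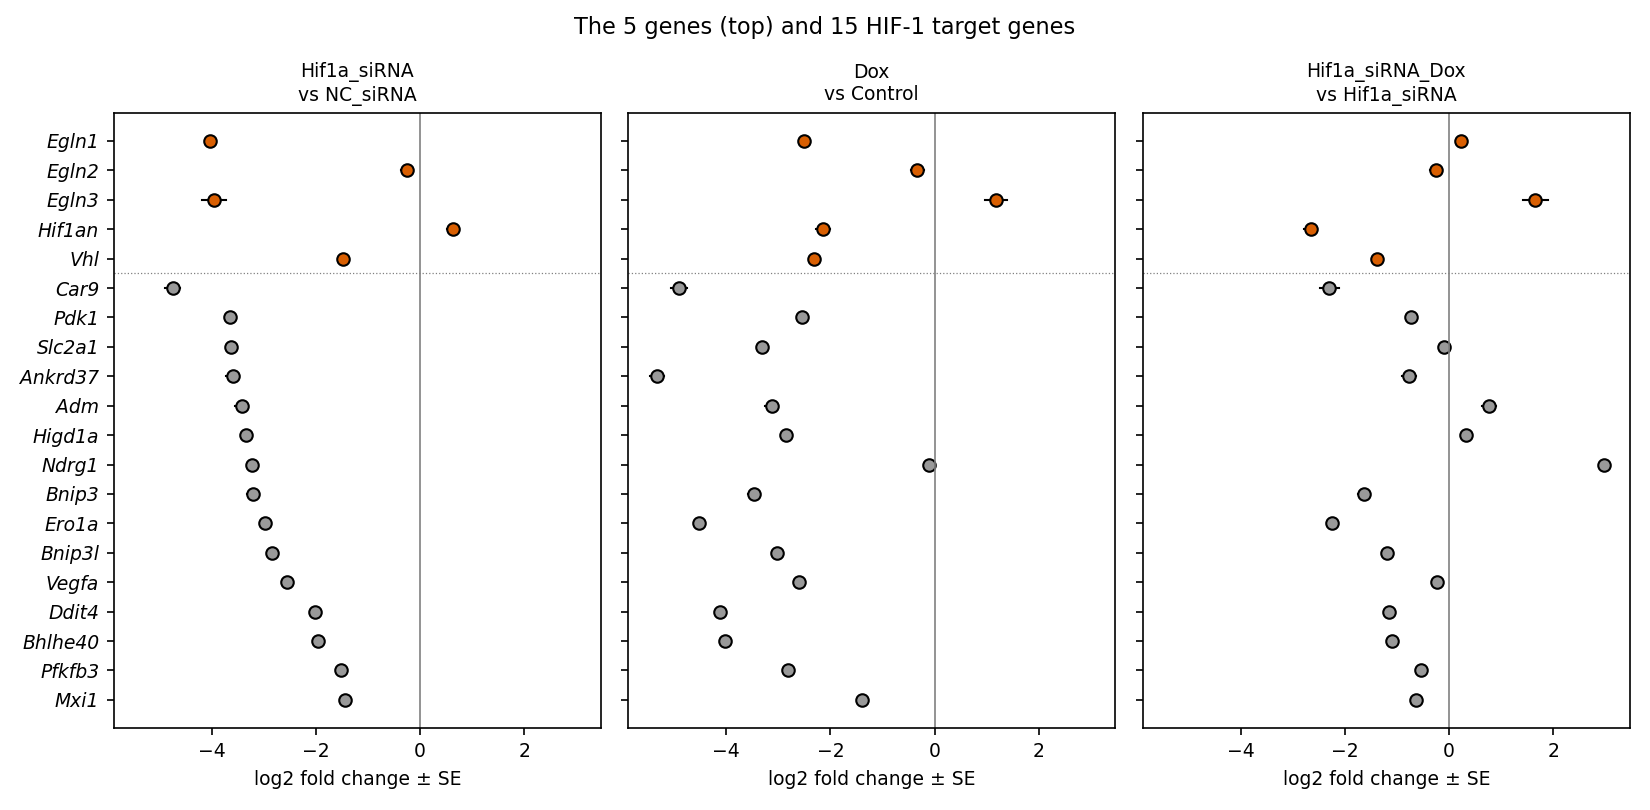
Log2 fold changes with standard errors (x axis) of the 5 genes, above the dotted line, and of 15 HIF-1 target genes, below it, in 3 panels: Hif1a siRNA against control siRNA, doxorubicin against untreated cells, and doxorubicin after knockdown against knockdown alone. All 15 targets lie below 0 after the siRNA and 14 of them pass the test below 0 after doxorubicin, where Egln3 stands at 1.18; after knockdown the targets spread from -2.29 to 2.98.

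Other genes of the pathway were counted in 4 further lists, with log2 changes ± SE. VHL acts in a complex with elongins, the cullin Cul2 and Rbx1, which needs the ubiquitin-like NEDD8 to be active. Of 13 genes of this complex and its cycle, doxorubicin alone lowered 9 and raised 4 (median log2 change -1.13), where 83.8% of all genes were called (43.9% higher and 39.8% lower). Cul2, the scaffold, fell 8.96-fold from 103 to 110 CPM in Control to 11.2 to 12.8 CPM in Dox (log2 change -3.16 ± 0.09, edgeR adjusted p = 1.00e-19). Nae1 (-2.87 ± 0.12) and Uba3 (-1.78 ± 0.07), the subunits of the NEDD8-activating enzyme, and Cand1 (-1.52 ± 0.08), a cullin exchange factor, fell with it, while Usp20, a deubiquitinase that binds VHL, rose (3.18 ± 0.12). Usp33, another deubiquitinase of this list, fell (-1.31 ± 0.12, edgeR adjusted p = 4.80e-10). In Control, Usp33 was the more abundant, at a mean of 67.6 CPM against 6.65 for Usp20. After Hif1a siRNA, 5 of the 13 rose, 4 fell and 4 did not pass against NC_siRNA (median 0.14), where 67.7% of all genes were called. Usp20 was the one that moved by at least 1 on the log2 scale (-1.07 ± 0.12). Against Control, Usp20 gave -0.14 ± 0.13 and did not pass (edgeR adjusted p = 0.319). Cul2, which fell with Vhl under doxorubicin, was slightly higher in Hif1a_siRNA than in NC_siRNA (0.20 ± 0.07, edgeR adjusted p = 0.0212). Against Control it did not differ by the test (0.03 ± 0.07, edgeR adjusted p = 0.712). Vhl fell in both comparisons.

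Of 14 partners and regulators of the prolyl hydroxylases, doxorubicin raised 8, lowered 2 and left 4 short of the test (median 0.48). Over all genes 83.8% were called (43.9% higher and 39.8% lower). Ptges3 (p23), a chaperone that recruits PHD2 to HSP90, fell 10.8-fold (log2 change -3.43 ± 0.10, edgeR adjusted p = 2.89e-19), and the LIM proteins Limd1 (2.63 ± 0.10) and Wtip (1.75 ± 0.10), which bridge PHDs and VHL, rose. Siah1b, a ubiquitin ligase gene of the family that degrades PHD3, rose by 2.59 ± 0.21 from 1.12 CPM in Control, while its near-identical and more abundant copy Siah1a (11.5 CPM) fell (-0.71 ± 0.14, edgeR adjusted p = 5.71e-05). Reads of the pair may have been shared, so both values are uncertain. After Hif1a siRNA 5 rose, 5 fell and 4 did not pass against NC_siRNA (median 0.11), where 67.7% of all genes were called. Siah1b (1.67 ± 0.20), Siah1a (0.73 ± 0.12) and Limd1 (1.2 ± 0.09) rose and Os9 (-1.10 ± 0.07), a lectin of the endoplasmic reticulum, fell.

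Of other dioxygenases that use oxygen, 13 were tested (P4htm was not listed). Against NC_siRNA, Hif1a siRNA lowered 7, raised 5 and left 1 short of the test (median -0.66), where 67.7% of all genes were called. Doxorubicin lowered 10 and raised 3 (median -1.13), where 83.8% of all genes were called. After the siRNA the collagen-modifying enzymes Plod2 (-3.80 ± 0.07), Plod1 (-3.76 ± 0.09) and P4ha2 (-3.12 ± 0.11) fell, P4ha1 fell less (-0.68 ± 0.09, edgeR adjusted p = 3.63e-07), and Jmjd6 fell by 2.47 ± 0.08 on the log2 scale. With doxorubicin alone Jmjd6 (-3.23 ± 0.08), P4ha2 (-3.01 ± 0.11) and the histone demethylases Kdm5c (-2.63 ± 0.09) and Kdm4a (-1.95 ± 0.09) fell, and the ribosomal oxygenase Riox1 rose (2.18 ± 0.16). Of the HIF subunits and co-regulators 6 were tested (Hif3a and Arnt2 were not listed). Against NC_siRNA, Hif1a siRNA lowered 3, of which 1 is its own target Hif1a, and raised 2, where 67.7% of all genes were called. Epas1, which encodes HIF-2α, was among the genes that fell (-1.84 ± 0.12), as was Cited2 (-1.68 ± 0.07), a competitor of HIF for p300. Against Control the siRNA lowered both by less (Epas1 -0.73 ± 0.12, Cited2 -1.03 ± 0.07). Doxorubicin alone lowered 3 of the 6, where 83.8% of all genes were called, led by Arnt (-4.48 ± 0.08) and Cited2 (-2.35 ± 0.08), and raised Ep300, the p300 gene (1.19 ± 0.10), and Epas1 (0.97 ± 0.12).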

How the data were processed

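RNA was extracted from 15 samples of B16.F10 cells in 5 groups of 3 and, per the labels' protocols, made into stranded mRNA libraries. Per the submitters' processing notes, the tools were HISAT2 2.1.0, StringTie 2.1.3b, Bowtie2 2.3.4.1, Trimmomatic 0.38 and FastQC 0.11.7, with the build mm10; their order and the strand setting of the counting are not given in the sources used here. The values deposited by the authors are raw read counts per gene, with no normalization. Depth was 23825110 to 28734303 reads per library, which leaves counting error largest for Egln3.

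The 12721 genes listed for all 5 groups were fitted and 451 others left out; repeated IDs were kept once, and 1491 blank symbols were filled by gene ID from RefSeq. One fit of all libraries with edgeR 4.0.16 (R 4.3.3) used TMM scaling, filterByExpr (which removed 0 genes), a group term, robust quasi-likelihood F tests (two-sided, 10 residual degrees of freedom) and Benjamini-Hochberg adjustment with a threshold of 0.05. Log2 changes carry standard errors. The statistic was tested on simulated data, but the settings and outcome are not given here and lend the results no support. Levels per kilobase used GENCODE M21 exon unions, and upstream sequences come from RefSeq.

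Named genes were the 5 genes, Hif1a, Arnt, up to 5 genes per pathway list and comparison with an adjusted p under 0.05 and a log2 change of at least 1 in size, and the 3 genes most like each of the 5. Ndrg1, Mxi1, P4ha1, Siah1a, Usp33, and Epas1 and Cul2 where they changed by less, were named after their values were seen. The 5 genes and the lists were chosen with earlier results of these data known. Alternatives were other scalings (size factors, upper quartile), DESeq2 1.42.0, limma-voom (limma 3.58.1), other filters, a replicate block, fits of only the compared groups, a fit without mitochondrial genes, a threshold of 0.01 and leaving out each library.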

Additional observations from a re-analysis of the deposited data

Results flagged for a closer look

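For 3 of the 5 genes the effect of doxorubicin differed between cells with and without the Hif1a siRNA, by the edgeR test of the difference itself, which called 58.6% of the 12721 genes, so that count does not set them apart. For Egln1 the log2 effect was -2.51 alone and 0.23 after knockdown, a difference of 2.733 (SE 0.121, edgeR adjusted p = 1.01e-14). For Vhl the effects were -2.32 and -1.38, a difference of 0.9382 (SE 0.134, edgeR adjusted p = 2.80e-06). For Hif1an they were -2.14 and -2.66, a difference of -0.5209 (SE 0.186, edgeR adjusted p = 0.0196). Egln1 and Vhl started from a lower level in the cells with the siRNA, and Hif1an from a higher one. Transfection is part of each difference, and time since transfection may differ between the groups; their part was not tested. With 3 libraries a group, no library was tested as an outlier; those of Hif1a_siRNA_Dox, which enter each difference, spread most (chi-square per degree of freedom 25.4 to 34.8 between pairs).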

How the results depend on the processing

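Of 965 log2 changes recomputed for the 5 genes, 922 kept their direction and their side of the threshold, 24 lost the call, 17 gained it and 2 turned; counts of called genes stayed within 1.5 times of the reported ones in all 193 recomputations. Depth limits Egln3 most. With upper-quartile factors the median log2 change over all genes shifted by 0.13 for Dox against Control and by 0.15 for Hif1a_siRNA_Dox against Hif1a_siRNA. Where the cause of a change below is not the stricter threshold or fewer samples, it was not tested. Under a threshold of 0.01, calls were lost for Egln1 in Hif1a_siRNA_Dox against Hif1a_siRNA (0.2277), Egln2 in Dox against Control (-0.3328), and Hif1an in the difference of effects (-0.5209), in Hif1a_siRNA_Dox against Dox (0.4315) and in NC_siRNA against Control (0.3135). Without mitochondrial genes the same Egln1 call was lost (0.1749), and Egln2 passed in Hif1a_siRNA_Dox against Hif1a_siRNA (-0.3033). Upper-quartile scaling ended the Egln2 call in Dox against Control (-0.2077). Egln2 in Hif1a_siRNA against NC_siRNA passed with size factors (-0.29), DESeq2 (-0.2901), limma-voom (-0.2421), only the compared groups (-0.2948) and genes listed for these groups (-0.2947). Egln2 in Hif1a_siRNA_Dox against Hif1a_siRNA passed with limma-voom (-0.2482), only these groups (-0.2499) and genes listed for them (-0.2586). Hif1an in Hif1a_siRNA_Dox against Dox lost its call with limma-voom (0.4445), only these groups (0.4403) and genes listed for them (0.4396).

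Leaving out each library gave these ranges of log2 change where a call or direction depended on it. Egln1 ran from -0.154 to 0.01713 in Hif1a_siRNA_Dox against Dox, turning without Dox replicate 2, and from 0.1229 to 0.2945 in Hif1a_siRNA_Dox against Hif1a_siRNA. Egln2 ran from -0.4807 to -0.2239 in Dox against Control, from -0.3141 to -0.1969 in Hif1a_siRNA against NC_siRNA, from 0.1129 to 0.3696 in Hif1a_siRNA_Dox against Dox, from -0.3689 to -0.1934 in Hif1a_siRNA_Dox against Hif1a_siRNA, and from -0.02668 (without Dox replicate 3) to 0.2301 in the difference of effects. Egln3 ran from 0.2735 to 0.7421 in the difference of effects and from 0.004663 to 0.4534 in Hif1a_siRNA_Dox against Control. Hif1an ran from -0.6246 to -0.3278 in the difference of effects, from 0.3278 to 0.6246 in Hif1a_siRNA_Dox against Dox and from 0.1975 to 0.4069 in NC_siRNA against Control. The difference of the Egln3 to Egln1 log2 ratio between Hif1a_siRNA and NC_siRNA ran from -0.1102 to 0.2564 and was -0.003234 without NC_siRNA replicate 3.

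Groups share replicate numbers, but same-numbered libraries did not deviate together: the 30 correlations ran from -0.16 to 0.09, and 4 of 15 libraries correlated best with their own number. With the number as a replicate block, Egln2 passed in Hif1a_siRNA_Dox against Hif1a_siRNA (-0.2538), and no other call of the 5 genes changed.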

Other observations

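Genes most like each of the 5 across the 15 libraries were ranked by Pearson correlation of log2 CPM among 10028 genes whose mean reached 5 CPM; the libraries share 5 treatments, so these values describe likeness of group patterns and carry no test. Egln1 was closest to Slc16a3, the lactate exporter MCT4 (r = 0.995), Ypel2 (0.991) and Tnfrsf9, the co-stimulatory receptor 4-1BB (0.988). Slc16a3 was highest in NC_siRNA (mean 325 ± 4.0 CPM, SD, n = 3) and Control (142 ± 6.3). Its level was 16.8 ± 1.1 CPM with the Hif1a siRNA, 22.4 ± 2.5 with doxorubicin and 22.4 ± 2.2 with both.

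Egln3 was closest to Gxylt2 (r = 0.970), Ncald (0.968) and Rap2a, a small GTPase (0.964). Gxylt2, a xylosyltransferase gene, was likewise highest in NC_siRNA (mean 58.3 ± 3.1 CPM, SD, n = 3), followed by Dox (31.5 ± 1.3), Control (21.5 ± 0.50) and Hif1a_siRNA_Dox (19.0 ± 0.93), and lowest in Hif1a_siRNA (11.7 ± 0.16). In all, 26 genes had r above 0.9 with Egln3, against 236 with Egln1.

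Vhl was closest to Map4, a microtubule-associated protein gene (r = 0.993), Soat1, which esterifies cholesterol (0.993), and Nek1 (0.990), and 849 genes had r above 0.9 with it. Hif1an was closest to Trim33 (0.995), Tmf1 (0.993) and Zdhhc17 (0.993), and shared its pattern with the most genes, 1591 above 0.9. Egln2 was closest to Dot1l, the histone H3 methyltransferase (0.932), Arap1 (0.923) and Zfp30 (0.920), with 13 genes above 0.9.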
